A study of Danio rerio with 8 samples.

Results

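The genes described here encode the proteins of the cytosolic ribosome, measured in zebrafish liver after exposure to river water. They were the genes whose symbol starts with rpl, rplp or rps followed by a digit, leaving out the S6 kinases (rps6k), symbols ending in l1 and the proteins of the mitochondrial ribosome. The rule used symbols only and no measured value. It found 80 genes among the 13443 with a symbol on the array, 46 of the large and 34 of the small subunit, with 169 probes. For rps24, 1 of its 3 probes stayed near background on all 8 arrays and was dropped, which left 168 probes. All 80 genes were measured on all 8 arrays, among 8654 such genes in all. The annotation held 82 symbols that meet the rule, and 2 of them had no probe.

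The cytosolic ribosome joins amino acids into protein. Its small subunit holds the mRNA and reads the codons, and its large subunit carries the centre that forms the peptide bond and the stalk to which translation factors bind. Its proteins are needed in near equal numbers, their mRNAs are among the most abundant of most cells, and the hepatocyte, which makes most plasma proteins, depends on them for its secretory output. In vertebrates these mRNAs start with a run of pyrimidines through which the growth kinase mTOR controls how strongly they are translated, so that the mRNA level alone does not give the rate of synthesis.

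RNA was taken from wild-type adult male zebrafish aged 3 months, and the livers of 5 fish, the number kept in a tank of still water, were pooled for each array. The control fish were kept in tap water that had been aerated and passed through activated carbon. The others were kept in filtered surface water from sites H1, H2, H3, H4 and H5 on the Hun River, from site D on the Dongzhou River or from site X on the Xi River, both of which are tributaries. Exposure lasted 96 h, although for D and X one label gives 97 h. Each group had 1 array, so the differences below have no replicate error and no p-value. The paper's second arrays were not analysed here. For D the paper itself had only 1 array, because a replicate RNA sample failed its quality check. Because each value comes from bulk tissue, fewer cells of a type and less RNA per cell cannot be told apart.

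The share of spots well above background ran from 56.5% (H2) to 63.9% (X) on all arrays but D, where it was 70.8%. On all 8 arrays 0 spots were saturated. One slide held the control, H1, H2 and D arrays, and the other slide held those of H3, H4, X and H5. For H3, H4, H5 and X a difference from the control is thus also a difference between slides. Site and slide cannot be told apart there. All 11 hepatocyte markers with a probe (of 12 listed) were well above background on every array, with a summed signal between 1221 and 1360 (in units of 1000). Markers of other tissues were also present. The summed signal of 7 exocrine pancreas markers was 744 on the control array, 243 at D and 69.6 at H3. Signals below are log2 processed signals after quantile normalization of the 8 arrays, a gene's value is the mean over its probes, and a difference is the site array minus the control array. The spread of a difference can only be given between probes of one gene. Over the 144 probes of the 56 members with more than 1 probe, the pooled between-probe SD of the difference ran from 0.11 (H2) to 0.21 (H1). It was 0.17 at D. The H1 value includes rpl31, whose 3 probes had an SD of 1.16 there. The median SD of a single gene was 0.10 at H1, 0.08 at H2 and 0.13 at D.

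After quantile normalization the ribosomal protein genes differed little between the 8 arrays, and this depended on the scaling. The median member differed by 0.34 on the log2 scale (1.26 fold) between its highest and lowest of the 8 arrays, against 1.09 (2.12 fold) for the median of all 8654 genes. Highest and lowest array were less than 2 fold apart in 78 of the 80 members, and in 43.8% of all genes. They were less than 1.5 fold apart in 69 members, and in 12.2% of all genes. On this scale bright genes outside the family also differed less between arrays than all genes did. Among the 788 genes brightest on average (the top 10%, members left out), 541 (68.7%) were less than 2 fold apart. Their median range was 0.75. The large subunit genes had a median range of 0.29 and the small subunit genes of 0.39. The range of rpl5a (0.11) was among the narrowest, and the widest were those of rps8b (1.32) and rpl31 (1.21), which were the only members past 2 fold. Without normalization 79 of the 80 members were less than 2 fold apart (34.0% of all genes), with a median range of 0.47. After subtraction of each array's 75th percentile, the scaling closest to the authors' table, only 5 of the 80 were (37.5% of all genes), and the median range was 1.34 (2.54 fold) against 1.17 for all genes. These other scales were applied to the range after the data were seen.

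Against the control, 1 member changed at least 2 fold at any site. This was rpl31, lower at H1, where 6.10% of all genes were at least 2 fold lower and 11.0% changed at least 2 fold either way. At the other sites 0 members reached 2 fold, while the share of all genes that did was 3.05% at H2, 13.1% at H3, 6.47% at H4, 4.04% at H5, 16.4% at D and 8.56% at X. With a threshold of 1.5 fold the number of members either way was 3 of 80 at H1 (26.0% of all genes), 0 at H2 (11.8%), 2 at H3 (29.5%), 0 at H4 (21.0%), 1 at H5 (16.2%), 2 at D (40.0%) and 1 at X (23.7%). At 3 fold, the threshold the methods used for D, 0 members passed there (4.95% of all genes). The calls at 1.5 fold came from 4 genes, rpl31, rps20, rps27l and rps8b. The remaining members stayed within 1.5 fold of the control at all 7 sites.

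The median difference of the large subunit genes was 0.03 at H1, 0.00 at H2, -0.05 at H3, -0.02 at H4, 0.03 at H5, 0.18 at D and 0.03 at X. That of the small subunit genes was -0.03 at H1, -0.03 at H2, -0.11 at H3, -0.05 at H4, 0.00 at H5, 0.17 at D and -0.01 at X. The 2 subunits thus lay within 0.07 of each other at every site, and D was the array on which both medians were farthest from the control. The median over all genes was 0.07 at H1, 0.05 at H2, 0.09 at H3, -0.03 at H4, 0.01 at H5, 0.10 at D and 0.09 at X.

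**Figure D1:**
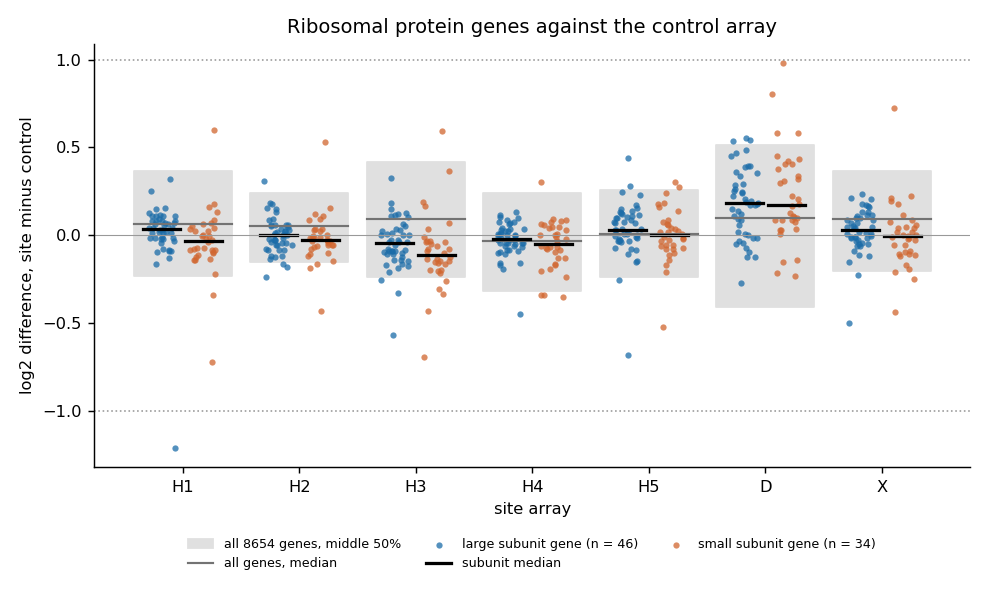
Log2 difference from the control array (vertical axis) of each large subunit gene (blue, n = 46) and small subunit gene (orange, n = 34) at the 7 sites, after quantile normalization. Black bars are subunit medians, the grey box and line are the middle 50% and the median of all 8654 genes, and dotted lines mark 2 fold. Most members lie close to 0 within the grey box, the D points lie mostly above 0, and the lowest point at H1 is rpl31 (-1.21).

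At D, 66 of the 80 members were higher than in the control (36 of 46 in the large and 30 of 34 in the small subunit), where 56.6% of all genes were higher. The D array was the highest of the 8 for 54 members, 28 of the large and 26 of the small subunit, against 27.7% of all genes. The median member was higher by 0.18 (1.13 fold), and stood 0.08 above the median of all genes. Among the highest members were rps8b (0.98), rps20 (0.80), rps21 (0.58), rplp0 (0.55) and rplp2 (0.55). The lowest were rpl35 (-0.27), a protein beside the exit of the peptide tunnel, rps29 (-0.23), a small zinc-binding protein of the small subunit, and rps15a (-0.21). At H3 57 of 80 members were lower than in the control (41.9% of all genes), and 28 of 34 in the small subunit, but after 75th percentile normalization 73 of the 80 were higher there (58.7% of all genes), and 30 of those 34. The number of members higher than the control was 43 at H1 (56.4% of all genes), 32 at H2 (58.0%), 22 at H3 (58.1%), 32 at H4 (46.8%), 46 at H5 (51.2%) and 41 at X (59.3%). Over the 7 sites, 9 members were higher than the control at every site (9.96% of all genes), namely rpl12, rpl19, rpl22, rpl23, rpl23a, rpl36a, rps9, rps14 and rps20. Another 5 were lower at every site (5.45% of all genes), among them rpl6, rpl31, rps15a and rps29. Both counts were close to the shares of all genes. After 75th percentile normalization 0 of the 80 members were higher at H4 and all 80 were higher at D, so neither list held on that scale. The comparisons share the control array, so a high or low value there moves all 7 differences together.

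**Figure D2:**
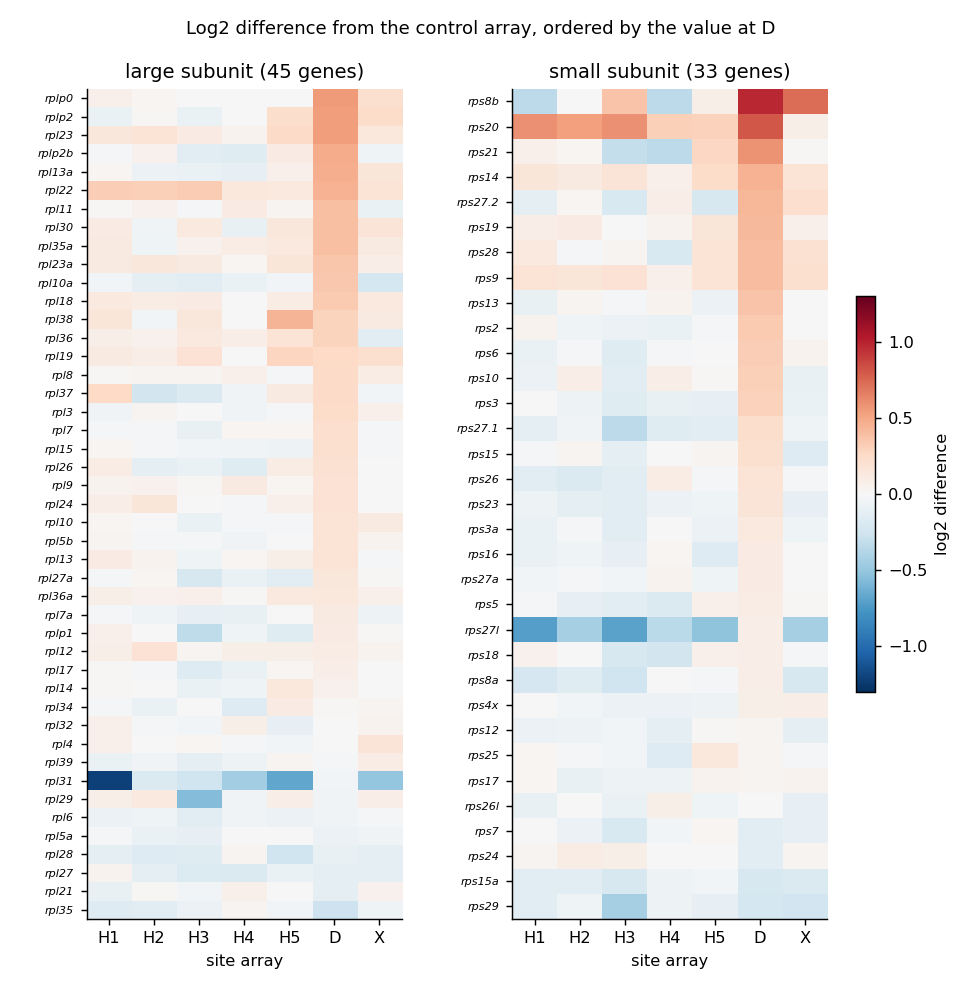
Log2 difference from the control array of 45 large subunit genes (left) and 33 small subunit genes (right), 1 row a gene and 1 column a site, ordered by the value at D. Red is higher and blue lower than the control. The D column is red for 65 of the 78 genes drawn, rps20 is red at all 7 sites, rps27l is blue at all sites but D, and rpl31 is darkest at H1.

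The size of the D difference depended on how the arrays were scaled. The 75th percentile of the log2 signal differed from the control array by 0.12 at H1, 0.00 at H2, -0.26 at H3, 0.41 at H4, 0.29 at H5, -0.56 at D and -0.31 at X. Before any normalization the median difference of the members was 0.00 at H1, 0.01 at H2, -0.02 at H3, 0.03 at H4, -0.01 at H5, 0.37 at D and 0.04 at X. It thus lay between -0.02 (H3) and 0.04 (X) at all sites but D, where it moved up while the 75th percentile moved down. When the 75th percentile was subtracted from each array, the member median became -0.12 at H1, 0.01 at H2, 0.24 at H3, -0.38 at H4, -0.29 at H5, 0.94 at D and 0.35 at X, while that of all genes was between -0.14 (H4) and 0.23 (D). On that scale all 80 members were higher at D (62.6% of all genes), 29 of them at least 2 fold (9.79% of all genes), of which 13 were of the large and 16 of the small subunit. At H4 0 of 80 were higher (37.3% of all genes). At D the member median was above 0 under all 11 settings tried that include this array, between 0.17 and 0.94. At X it was above 0 under all 12 settings, between 0.00 and 0.35. There the large subunit median was above 0 under all 12, but the small subunit median was below 0 under 9 of them. At H1 to H5 the sign of the member median changed with the setting. The settings were not independent. The authors' values nearly repeated the 75th percentile scale, and the other probe filters moved none of the values of named members. The 788 brightest genes outside the family had a median at D of 0.07 after quantile normalization, 0.53 after 75th percentile normalization and -0.03 without normalization.

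**Figure D3:**
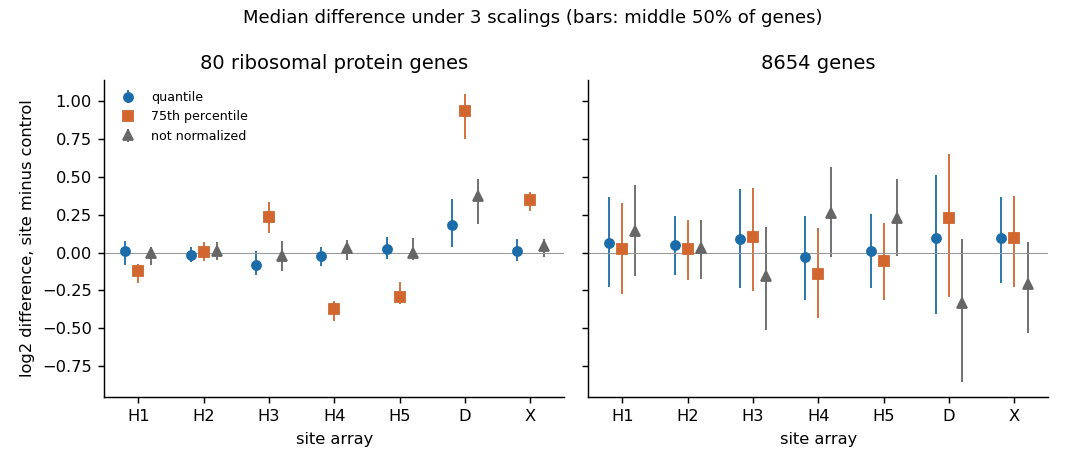
Median log2 difference from the control array for the 80 ribosomal protein genes (left) and for all 8654 genes (right) at the 7 sites, after quantile normalization (circles), after 75th percentile normalization (squares) and without normalization (triangles). Bars span the middle 50% of genes. The members lie near 0 at H1 to H5 without normalization, leave 0 in both directions after 75th percentile normalization, and are above 0 at D on all 3 scales (0.18, 0.94 and 0.37).

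At D the dim members tended to have higher differences than the bright ones. Across the 80 members, Spearman's rho between the control signal and the difference was -0.45 at D, -0.47 at H5, -0.45 at X, -0.34 at H1, -0.21 at H3, -0.14 at H2 and 0.26 at H4. The points share 1 pair of arrays at each site, and the control signal enters both measures. Within the 56 genes with more than 1 probe, the dimmest probe had a higher difference than the brightest at D in 41, with a median gap of 0.14. At the other sites this held for 23 (H4) to 38 (H5) of the 56. The 4 probes of rps6, the small subunit protein that S6 kinase phosphorylates in mammals, show the pattern at D, where their differences from brightest to dimmest were 0.24, 0.16, 0.40 and 0.48. Whether the probe signal itself sets the difference was not tested.

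The correlation among members over the arrays was lower without D. The Pearson correlation of a member with the mean of the other members, over the 8 arrays, had a median of 0.71, was above 0.5 in 55 members and below 0 in 10. Over the 7 arrays without D the median was 0.35, with 28 members above 0.5 and 16 below 0. The points of each correlation share the normalization and, for most members, one array that stands apart. The measured genes outside the family with the pattern most like the member mean were tmem203 (r = 0.978), the mitochondrial ribosomal gene mrps28 (0.977), the ATP synthase subunit atp5f1d (0.977), bcs1l (0.975), an assembly factor of respiratory complex III, and smim19 (0.967), out of 8574 genes compared over 8 arrays. The scaffold protein rack1, which sits on the small subunit but lies outside the symbol rule, had r = 0.966. Without D these values were 0.97 for tmem203, 0.83 for mrps28, 0.86 for atp5f1d, 0.92 for bcs1l, 0.71 for smim19 and 0.76 for rack1.

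The stalk of the large subunit, which recruits the elongation factors, held 3 of the members with the highest values at D. The signal of rplp0, its base, was 16.57 on the control array, 16.64 at H1, 16.60 at H2, 16.57 at H3, 16.57 at H4, 16.58 at H5, 17.13 at D and 16.79 at X. Only D and X stood above the other arrays. The D difference was 0.55 (1.47 fold), and its 4 probes gave 0.48, 0.57, 0.40 and 0.76. The D differences of rplp2 and its paralog rplp2b were 0.55 and 0.48, from 1 probe each, and that of rplp1 was 0.11. At H3 rplp1 had -0.33, while rplp0 had 0.00. Not normalized, the D difference of rplp0 was 0.77, and after 75th percentile normalization it was 1.33, the largest of any member on that scale.

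Of the large subunit proteins that bind and restrain the p53 regulator Mdm2 in mammals, rpl11 had a D difference of 0.39, rpl23 of 0.54 and rpl5b of 0.17. Its paralog rpl5a, also on 2 or more probes, had -0.07 and did not leave the band between 16.59 and 16.70 on any array. The D difference of rpl26, which in mammals raises p53 synthesis, was 0.20. At H1 to H5 and X the 5 genes lay between -0.16 and 0.25. The differences of rps27a, whose product is cut into ubiquitin and a ribosomal protein, lay between -0.06 and 0.10. The core genes rpsa and rack1, which lie outside the symbol rule, had D differences of 0.35 and 0.29. The 22 members whose human counterparts are mutated in Diamond-Blackfan anaemia had a median of 0.18 at D, with 14 of 22 higher (56.6% of all genes). At H3 their median was -0.09, with 18 of 22 lower (41.9% of all genes). These medians were close to those of all 80 members, 0.18 at D (66 higher) and -0.08 at H3 (57 lower). For the 80 members the H3 direction reversed on the scale closest to the authors' table, where 73 were higher.

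The small subunit gene rps20, a protein of the subunit's head, was higher than the control at all 7 sites. Its signal was 14.49 on the control array, 15.09 at H1, 15.02 at H2, 15.08 at H3, 14.79 at H4, 14.79 at H5, 15.29 at D and 14.56 at X. The control array was the lowest of the 8, with X close to it. Its differences were 0.60 at H1, 0.53 at H2, 0.59 at H3, 0.31 at H4, 0.30 at H5, 0.80 at D (1.75 fold) and 0.07 at X. The 2 probes differed by no more than 0.24 in any of these, and gave 0.79 and 0.82 at D. Without normalization its differences were 0.58 at H1, 0.47 at H2, 0.51 at H3, 0.34 at H4, 0.35 at H5, 0.76 at D and -0.06 at X. After 75th percentile normalization they were 0.46 at H1, 0.47 at H2, 0.76 at H3, -0.07 at H4, 0.06 at H5, 1.32 at D and 0.25 at X, so that only H1, H2, H3 and D kept a clear distance from 0 on all 3 scales.

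The paralog rps27l, whose human counterpart is a target of p53, went the other way. Its 1 probe gave 13.84 on the control array, 13.12 at H1, 13.41 at H2, 13.14 at H3, 13.48 at H4, 13.31 at H5, 13.92 at D and 13.40 at X. The control and D arrays were high and the other 6 low. The differences were -0.72 at H1 (0.61 fold), -0.43 at H2, -0.69 at H3, -0.35 at H4, -0.52 at H5, 0.09 at D and -0.43 at X. They were below 0 at the same 6 sites on all 3 scales, and at D the value was -0.16 without normalization and 0.41 after 75th percentile normalization. Its relative rps27.1 had the same signs with smaller differences in 6 of the 7, at -0.11 at H1, -0.04 at H2, -0.34 at H3, -0.16 at H4, -0.14 at H5, 0.22 at D and -0.06 at X. The differences of rps27.2 had mixed signs, between -0.21 (H5) and 0.43 (D).

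The genes rps8b and rps21 had wide ranges on 1 probe each. The probe of rps8b gave 11.59 on the control array, 11.25 at H1, 11.59 at H2, 11.96 at H3, 11.25 at H4, 11.66 at H5, 12.57 at D and 12.31 at X, so that D and X were high. Its D difference was 0.98 (1.97 fold) and its X difference 0.72 (1.65 fold). Without normalization rps8b had 0.51 at D, 0.43 at X and 0.34 at H5. After 75th percentile normalization it had 1.07 at D, 0.74 at X and 0.05 at H5. The differences of its paralog rps8a, on 2 probes, lay between -0.26 (H3) and 0.09 (D). The probe of rps21 gave 15.29 on the control array, 15.36 at H1, 15.31 at H2, 14.98 at H3, 14.95 at H4, 15.56 at H5, 15.88 at D and 15.31 at X. It was lowest at H3 and H4 and highest at D, with differences of -0.31 at H3, -0.34 at H4 and 0.58 at D.

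The 2-fold call of rpl31 at H1 rested on probes that disagreed. This protein lines the outer side of the large subunit near the peptide exit. The brightest of its 3 probes gave 15.12 on the control array, 15.25 at H1, 15.19 at H2, 15.19 at H3, 15.04 at H4, 15.39 at H5, 15.65 at D and 15.29 at X. The second gave 11.86 on the control array, 9.97 at H1, 11.59 at H2, 11.51 at H3, 11.24 at H4, 10.66 at H5, 11.71 at D and 11.10 at X. The third gave 11.50 on the control array, 9.63 at H1, 11.16 at H2, 11.01 at H3, 10.86 at H4, 10.39 at H5, 11.02 at D and 10.59 at X. The last pair moved together and were lowest at H1 and H5, while the brightest probe was within 0.53 of the control everywhere. At H1 the 3 differences were 0.13, -1.89 and -1.87, with a mean of -1.21 and an SD of 1.16. Probes of rps28 and rpl37 also differed. The brighter probe of rps28 had -0.02 at D and the dimmer 0.83, and the probes of rpl37 had 0.01 and -0.48 at H2. Which transcripts each probe detects was not tested.

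**Figure D4:**
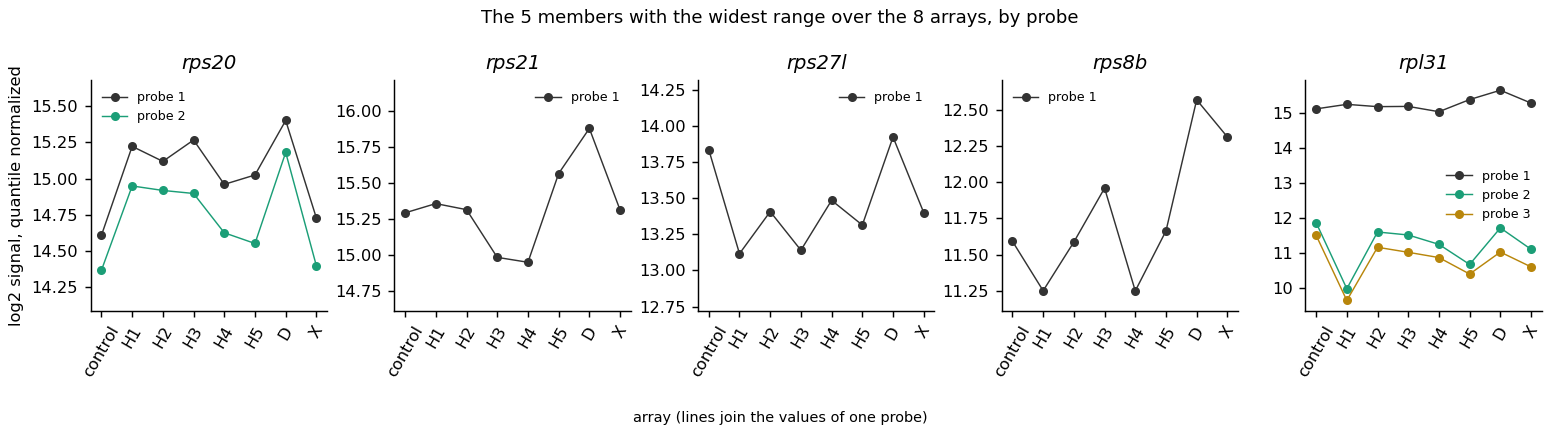
Log2 signal after quantile normalization of each probe of rps20, rps21, rps27l, rps8b and rpl31 (vertical axes, each with its own scale) on the 8 arrays (horizontal axes). Lines join the values of one probe. Both probes of rps20 are lowest on the control and X arrays, rps27l is high on the control and D arrays, rps21 and rps8b peak at D, and the 2 dimmer probes of rpl31 drop at H1 while the brightest does not.

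Other members with wider departures at single sites were rpl29, at -0.56 at H3 (0.68 fold), and rpl38, at 0.44 at H5, a protein needed in mouse embryos to translate Hox mRNAs. The differences of rpl22, dispensable for most translation in mice, were 0.32 at H1, 0.31 at H2, 0.33 at H3, 0.14 at H4, 0.13 at H5, 0.45 at D and 0.18 at X. Those of rps29 were -0.14 at H1, -0.06 at H2, -0.43 at H3, -0.07 at H4, -0.11 at H5, -0.23 at D and -0.25 at X. For both, the control array was at one end of the 8 values.

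The factors that build ribosomes had higher medians than the ribosomal proteins at all sites but D. Of 73 listed biogenesis genes, 60 were measured. Their median difference was 0.46 at H1 (56 of 60 higher, 24 of them at least 1.5 fold, against 14.1% of all genes). It was 0.32 at H2, 0.22 at H3, 0.10 at H4 and 0.44 at H5 (49 of 60 higher, against 51.2% of all genes). At D it was 0.03 and at X 0.27. At H1, where 56.4% of all genes and 43 of the 80 ribosomal protein genes were higher, the 2 lists thus stood 0.44 apart in their medians (0.46 against 0.01). The biogenesis medians at H1, H2 and H5 were above 0 under all 12 settings, but they leaned on the control array. Against the median of the other 7 arrays they were 0.25 at H1, 0.08 at H2, -0.01 at H3, -0.19 at H4, 0.17 at H5, -0.28 at D and 0.05 at X. At D 3 of the 60 biogenesis genes were at least 2 fold higher and 7 at least 2 fold lower. These counts were close to the shares of all genes (6.67% and 9.74%). The lower genes included utp3 (-1.81), a part of the complex that processes the small subunit's RNA, and ebna1bp2 (-1.58), a large subunit assembly factor. Another was sbds (-1.38), which helps release the anti-association factor eif6. The measured genes of the mitochondrial ribosome (65 of 65 listed) had medians of 0.33 at H1, 0.21 at H2, -0.09 at H3, -0.08 at H4, 0.36 at H5, 0.13 at D and -0.04 at X. They too were above 0 at H1, H2 and H5 under all 12 settings.

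**Figure D5:**
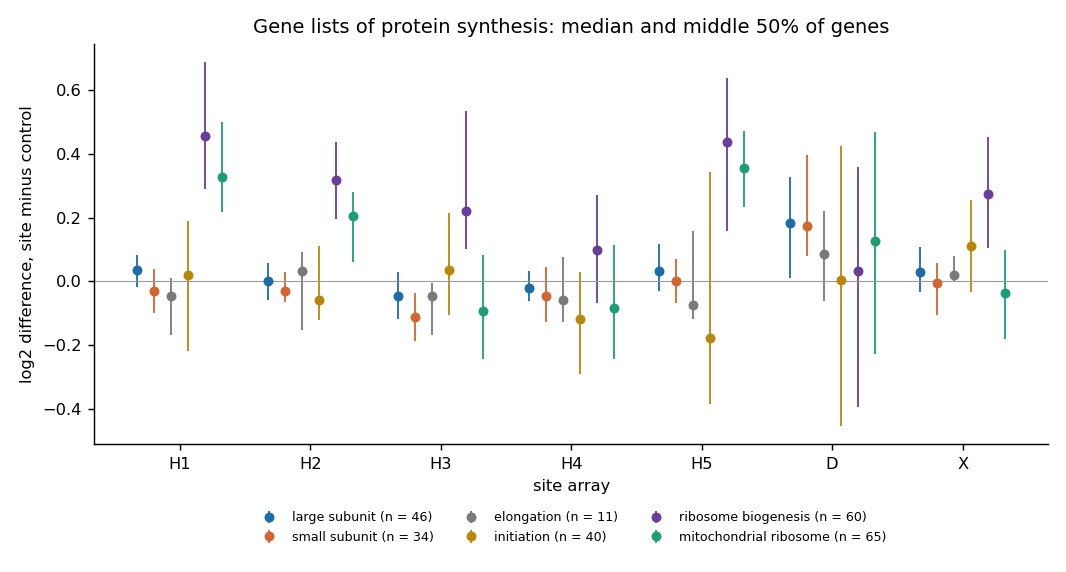
Median log2 difference from the control array at the 7 sites for the large and small subunit genes, elongation factors, initiation factors, ribosome biogenesis genes and mitochondrial ribosomal protein genes, after quantile normalization. Bars span the middle 50% of the genes of a list, and n is the number measured. Biogenesis and mitochondrial ribosome genes lie above the cytosolic ribosomal proteins at H1, H2 and H5, and both subunits lie above the other lists at D.

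The elongation factors stayed close to the ribosomal proteins. With 11 of 17 listed genes measured, their medians lay between -0.07 (H5) and 0.09 (D), and 1 gene passed 2 fold, eef2a.1, at -2.97 at D. This is a copy of the factor that moves the ribosome along the mRNA. Of 45 listed initiation factors 40 were measured, with medians between -0.18 (H5) and 0.11 (X). At D 3 of the 40 were at least 2 fold higher and 4 at least 2 fold lower, close to the shares of all genes (6.67% and 9.74%). The list counts the helicase eif4a3 (1.18), although whether it acts in initiation was not tested. Among the lower genes, the cap-binding protein eif4ea had -1.65 and eif1axa, which takes part in the search for the start codon, had -1.23. Elsewhere eif4a1a (-1.25 at H4) and the poly(A)-binding gene pabpc4 (1.32 at H5) passed 2 fold. Of 21 listed genes of the mTOR and Myc control of ribosome synthesis 13 were measured. The transcription factor gene mycb had 2.30 at H3 and 1.18 at D, while its paralog myca had -1.29 at D. The gene tsc1a, which restrains mTOR, was higher than the control at every site (9.96% of all genes), from 0.64 at H5 to 1.43 at H3. It was 2.15 fold higher at D, and its 1 probe was lowest on the control array. The mTOR inhibitor gene deptor had -1.02 at H4 and was past 2 fold lower at D.

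Markers of other cell types and tissues also differed between the arrays. All 9 leukocyte markers with a probe (of 10 listed) were well above background on every array, and their summed signal (in units of 1000) was 61.5 on the control array, 67.1 at D and between 32.0 (H3) and 82.9 (H4) on the 8 arrays. That of the 5 erythrocyte markers with a probe (of 6) was 50.4 on the control array, 70.7 at D and between 29.2 (H3) and 62.0 (H4) at the other sites. Both lists were lowest at H3. The 7 exocrine pancreas markers (of 8), a cell type rich in ribosomes, were lower than in the control at all 7 sites by a median of -0.34 (H4) to -4.87 (H3), and of -2.17 at D. The 2 intestine markers measured on all 8 arrays had D differences of -7.00 and 0.04. The summed signal of the 5 intestine markers with a probe (of 6) was 98.7 on the control array and 1.41 at D. It ran from 2.82 (X) to 105 (H5) at the other sites, and at D slc15a1b was not well above background. That of the 5 heart markers with a probe (of 6) was 1.69 on the control array, 67.9 at H5 and at most 2.09 elsewhere, with nppa not well above background on any array but H5. That of the 8 testis markers was 1.15 on the control array, 24.5 at H4, 1.84 at D and at most 6.71 elsewhere, with sycp3 not well above background on the control array, H1, H2, D and X. Their part in the values of the ribosomal protein genes was not tested.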

How the data were processed

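Per the labels, RNA was labelled with Cy3, and the methods name one-colour Agilent zebrafish arrays. The authors scanned them (Feature Extraction 11.5.1.1 in the file header, 10.7 in the submitters' processing notes) and deposited spot intensity after background subtraction. They also deposited a log2 table, which lay within 0.01 of the log2 intensity minus 1 offset per array for at least 99.97% of probes. Each offset was near that array's 75th percentile, although the methods name quantile normalization. That table's medians ran from -2.47 (X) to -2.15 (D), with -2.34 for the control, -2.42 for H1, -2.43 for H2, -2.46 for H3, -2.38 for H4 and -2.45 for H5.

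Here the log2 intensity of 43603 probes was quantile normalized over 8 arrays. Spots of a probe were averaged without the control spots, and 15013 probes with a symbol were kept that were well above background and not marked as non-uniform or population outlier on any array. A gene is the mean of its probes. Symbols (26094 probes) came from a RefSeq table matched by accession. Samples were grouped by title, and sites were set against the control by log2 difference and fold thresholds of 2 and 1.5, with no test. The number of arrays limits the precision. The computation was tested on simulated data. The pass check left out rises of the brightest genes, because quantile normalization shortens rises at the top of the signal range. Of the 80 members, 78 lay in that top range on all 8 arrays. The test thus does not cover the size of their rises after quantile normalization. Members and gene lists were chosen with earlier results of these data known.

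Named with values are the 3 highest and 3 lowest members at each site where they add to the account, the 5 with the widest range, stalk, p53, ubiquitin-fusion and paralog genes, up to 3 genes of a translation list past 2 fold at a site, and the genes most like the member mean. Alternatives were 75th percentile normalization, the authors' values, normexp (limma 3.58.1, offset 50, on median spot and background signals in place of the planned mean signal), other probe filters, the median of probes, other reference arrays and other thresholds. Normalization without D and no normalization were added after the data were seen. Python 3.11.15, numpy 2.4.6, pandas 2.3.3 and R 4.3.3 were used. Some genes are not reported here by name.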

Additional observations from a re-analysis of the deposited data

How the results depend on the processing

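Both subunits' medians counted as moved where they shifted by more than the between-probe SD of single genes, a wide yardstick for a median, so smaller shifts are not counted. With counts past 2 fold that shifted over 1.5 times, 31 values moved. For single named members 463 values moved and 2045 did not. The medians of both subunits turned sign after 75th percentile normalization at H2, H3 and H5, that of the large subunit also at H1, and that of the small subunit at X. Of these, the large subunit at H2 and the small subunit at H5 had medians of 0.00 after quantile normalization, so their sign carried no meaning. Most moves came from subtracting the 75th percentile. Large subunit medians then became 0.287 at H3, -0.375 at H4, -0.282 at H5, 0.925 at D and 0.36 at X, and small subunit medians 0.202 at H3, -0.377 at H4, -0.317 at H5, 0.935 at D and 0.302 at X. With the authors' log2 values they were 0.287, -0.375, -0.281, 0.924 and 0.36, and 0.202, -0.377, -0.316, 0.934 and 0.303, at the same sites. Without normalization, chosen after seeing the data, D had 0.362 and 0.372. The number of members past 2 fold at D was 29 with the 75th percentile and with the authors' values, against 0. Of all genes, 9.79% were at least 2 fold higher at D after 75th percentile normalization. After quantile normalization 16.4% of all genes passed 2 fold either way there. With the median of the probes 1 member passed at H5, and with the other 7 arrays as reference 0 passed at H1. At 1.5 fold the counts were 3 at H1 (26.0% of all genes), 2 at H3 (29.5%) and 1 at H5 (16.2%). They were 2 at D (40.0%) and 1 at X (23.7%). At 3 fold, the threshold of the methods at D, 0 passed there (4.95% of all genes). The cause of these moves was not tested.

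With 1 array a group no error between fish pools is known, and saturation was not reached on any spot. No paired analysis was possible because each group had 1 array and the comparisons rest on no test. With 1 array a group, none was left out within a group.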

Other observations

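Some genes with similar symbols lie outside the family and were set beside it. The kinase gene rps6ka3a, a member of the p90 S6 kinase family, was lower than the shared control array at all 7 sites (5.45% of all genes). Its differences were -1.03 at H1, -0.65 at H2, -0.63 at H3, -1.11 at H4, -0.78 at H5, -0.68 at D and -0.93 at X. In contrast rps6kb1b, a zebrafish gene for the p70 S6 kinase, which phosphorylates the ribosomal protein S6, had -0.17 at H1, 0.04 at H2, 0.45 at H3, -0.10 at H4, -0.08 at H5, -0.02 at D and 0.42 at X. For rps6kal the difference was -1.31 at D, 0.37 at X and between -0.22 (H5) and 0.14 (H3) elsewhere. The paralog rpl22l1 had differences between -0.05 (H4) and 0.26 (D). The gene rpl7l1, related to rpl7, had 0.57 at H1, 0.45 at H5 and -0.24 at D. These genes were chosen after their values were seen.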
